A study of Mus musculus with 2 samples.

Results

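The Mir26 family consists in the mouse of 3 microRNA (miRNA) genes, Mir26b, Mir26a-2 and Mir26a-1, each inside a gene of the Ctdsp phosphatases. They were chosen by name, as the rows of the count files whose Ensembl gene IDs carry these symbols in the GENCODE mouse annotation, and all 3 of the 1973 counted miRNA genes were found. The samples form 1 group, hearts of B6NCrl mouse embryos at day 15.5, both sexes pooled and labelled healthy, with no treatment or other genotype in the labels. Replicate 1 is a pool of 78 embryos and replicate 2 a pool of 62, and both labels name the same donor record. Small RNA from total RNA was sequenced, and the files give read counts for whole hairpins, so the arms of a hairpin are not told apart. No second group exists, so the data answer how strongly each Mir26 gene was counted and how far the 2 pools differed. In such tissue pools, fewer cells of a type and less RNA per cell cannot be told apart.

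miRNAs are cut as hairpins from longer transcripts, and 1 arm of the hairpin guides the silencing complex to mRNAs that pair with its seed, bases 2 to 8. miR-26 is known as a restraint on growth, with the Polycomb enzyme Ezh2 and G1 cyclins among its targets. The hosts encode small phosphatases of the RNA polymerase II tail, which help to keep neuronal genes off in other tissues. In zebrafish, miR-26b represses its own host transcript during neuronal differentiation.

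The hairpins show what the counts can separate. They are printed 5′ to 3′ as RNA, from RefSeq on GRCm38.p6, with both mature arms in capitals.
Mir26b (chr1:74394310-74394394, plus strand): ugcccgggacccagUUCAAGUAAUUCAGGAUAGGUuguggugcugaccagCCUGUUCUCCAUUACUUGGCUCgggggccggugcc
Mir26a-2 (chr10:126995530-126995613, plus strand): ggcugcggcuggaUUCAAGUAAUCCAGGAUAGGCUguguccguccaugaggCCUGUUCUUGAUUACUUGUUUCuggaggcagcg
Mir26a-1 (chr9:119031796-119031885, plus strand): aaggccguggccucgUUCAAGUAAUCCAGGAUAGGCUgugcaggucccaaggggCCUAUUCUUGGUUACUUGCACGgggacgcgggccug
The 5′ arms of Mir26a-2 and Mir26a-1 were identical in all 22 bases, and the identical stretch of the hairpins ran 25 bases, the arm and the 3 bases after it. A read of this arm therefore has at least 2 exact places in the annotated hairpins. Mir26b shared no stretch longer than 11 bases with any other of the 1894 hairpins searched.

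The mature arms are shown with the seed in capitals, since the seed decides which of them can share targets.
miR-26b-5p: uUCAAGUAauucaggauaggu
miR-26a-5p: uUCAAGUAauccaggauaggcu
miR-26b-3p: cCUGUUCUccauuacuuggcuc
miR-26a-2-3p: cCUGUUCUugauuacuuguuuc
miR-26a-1-3p: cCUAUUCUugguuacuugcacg
All 5′ arms carried the same seed, and among the mature miRNAs of the RefSeq table no gene outside the 3 had it. Counted from 1 at the 5′ end, with the miR-26b base first, miR-26b-5p and miR-26a-5p differed by U11C and U21C, and miR-26b-5p was 1 base shorter, with 21 bases. The 3′ arms were more diverse. Those of Mir26a-1 and Mir26a-2 differed at 6 of 22 positions, from A4G, inside the seed, to G22C, with the Mir26a-1 base first. The 3′ arms of Mir26b and Mir26a-2 differed at 4 positions, all outside the seed. Their common 3′ seed was also found in the 3′ arms of Mir6932 and Mir7039, while that of Mir26a-1 was found in no other gene. In all 141767 GENCODE transcripts, miR-26a-5p matched the transcripts of both Mir26a genes and of no other gene, and each other arm matched its own hairpin alone. The genome outside annotated transcripts was not searched.

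Mir26b was among the most counted miRNA genes of the embryonic heart, and both Mir26a genes had few counts. Mir26b (ENSMUSG00000065468.1) had 115938 counts in replicate 1 and 175030 in replicate 2. These are 33707 and 30006 counts per 1000000 counts on miRNA genes (CPM), or 3.37% and 3.00% of them. It held rank 9 of all counted genes in each library. Mir26a-2 (ENSMUSG00000065430.1) had 98 and 160 counts in replicates 1 and 2, or 28.5 and 27.4 CPM, at ranks 240 and 250. Mir26a-1 (ENSMUSG00000065513.1) had 22 and 42 counts, or 6.40 and 7.20 CPM, at ranks 286 and 298. All 3 passed the limit for detection, at least 10 counts in both libraries, which 327 genes reached. The order Mir26b, Mir26a-2, Mir26a-1 was the same in both libraries, and the levels of the 3 genes did not overlap.

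**Figure D1:**
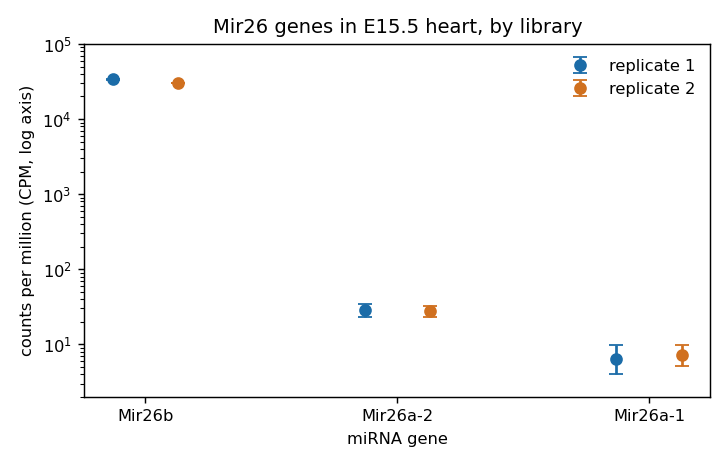
Level of Mir26b, Mir26a-2 and Mir26a-1 in CPM on a log axis, 1 point per library with its exact binomial 95% interval (counting error only). Mir26b sits at 33707 and 30006 CPM, Mir26a-2 at 28.5 and 27.4 CPM, and Mir26a-1 at 6.40 and 7.20 CPM.

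The means were 31857 ± 2617 CPM for Mir26b, 28.0 ± 0.752 CPM for Mir26a-2 and 6.80 ± 0.569 CPM for Mir26a-1 (SD, n = 2 pools). Exact binomial (Clopper-Pearson) 95% intervals, which cover counting error only, ran for Mir26b from 33517 to 33899 CPM in replicate 1. In replicate 2 the interval of Mir26b was 29868 to 30145 CPM. For Mir26a-2 they ran from 23.1 to 34.7 CPM and from 23.3 to 32.0 CPM, and for Mir26a-1 from 4.01 to 9.68 CPM and from 5.19 to 9.73 CPM. The intervals of the libraries overlapped for both Mir26a genes and not for Mir26b. On the strand opposite each hairpin, all 3 genes had 0 counts in both libraries, where a count of 0 allows up to 0.872 CPM in the first pool and 0.514 CPM in the second.

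Within the family nearly every counted read belonged to Mir26b. Its share of the family's counts was 99.9% in both libraries, of 116058 family counts in replicate 1 and 175232 in replicate 2. The other 120 and 202 counts were those of both Mir26a genes together. Replicate 1 held 1183 counts of Mir26b for each count of Mir26a-2 (971 to 1457, exact binomial 95% interval of the ratio), and replicate 2 held 1094 (937 to 1285). Mir26b to Mir26a-1 gave 5270 (3481 to 8409) and 4167 (3083 to 5783). Mir26a-2 exceeded Mir26a-1 by 4.45 times (2.78 to 7.43) in replicate 1 and 3.81 times (2.70 to 5.49) in replicate 2. On the log2 scale these ratios averaged 10.15 ± 0.08, 12.17 ± 0.23 and 2.02 ± 0.15 (SD, n = 2). The hairpins measured 85, 84 and 90 bases in the order Mir26b, Mir26a-2, Mir26a-1, so length differed little. These are ratios of counts and need not be ratios of amounts in the tissue.

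The way reads were counted limits what these ratios can show. The files keep multiply matching reads on a line of their own, 33.0% and 30.1% of all reads in replicates 1 and 2, outside every gene's count. A full miR-26a-5p read matches 2 genes exactly. A read credited to Mir26a-2 or Mir26a-1 has to differ between them, as 3′ arm reads and reads past the stretch in common do, whereas a Mir26b read of either arm has 1 exact place among the hairpins. How many of the multiply matching reads were miR-26a-5p was not tested, and the files used do not separate them by sequence. Whether miR-26a or miR-26b was the more abundant in these hearts cannot be told from these counts.

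The hairpins lie in matching places of related genes. On GRCm38 (mm10), the hairpin of Mir26b lay in intron 4 of Ctdsp1 transcript Ctdsp1-201, which has 7 exons. Mir26a-2 lay in intron 5 of Ctdsp2-202 and Mir26a-1 in intron 5 of Ctdspl-201, both with 8 exons, counting introns from the start of the transcript. All 3 hairpins lay on the strand of their host. The introns differed in length, with 564 bases for Mir26b, 1946 for Mir26a-2 and 3283 for Mir26a-1. From the start of the host transcript to the hairpin there were 2801 bases in Ctdsp1, 16813 in Ctdsp2 and 105343 in Ctdspl. The most counted hairpin lay in the shortest host and the least counted in the longest, an order of 3 genes that is given as a description. The hosts themselves were not measured here.

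**Figure D2:**
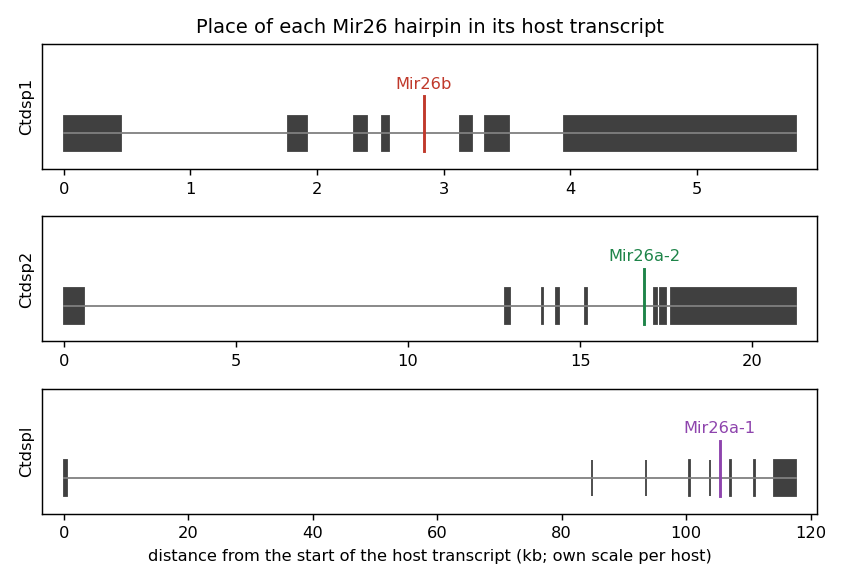
Exons (dark boxes) and introns (line) of Ctdsp1-201, Ctdsp2-202 and Ctdspl-201, by distance from the start of the transcript in kb, each on its own scale. The coloured line marks the hairpin, in intron 4 for Mir26b and in intron 5 for Mir26a-2 and Mir26a-1.

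Mir26a-2 differed from the others in its annotation. A pair of further Ctdsp2 transcripts, Ctdsp2-201 and Ctdsp2-203, start at position 126995613 of chromosome 10, the last base of the hairpin, and RefSeq lists a start of Ctdsp2 at the same base. By overlap alone the hairpin of Mir26a-2 thus touches an exon by its last base. Mir26b lay in an intron of 2 of 3 Ctdsp1 transcripts and Mir26a-1 in an intron of 3 of 4 Ctdspl transcripts, and the remaining transcript of each host did not span it. Neighbours were sought among the 1894 counted miRNA genes with a position in the annotation. The nearest of these to Mir26a-2 was Mir546, whose start lies 2910 bases downstream. It lies after the stop codon in the last exon of Ctdsp2-201 and Ctdsp2-202. Mir546 had 5 and 3 counts in replicates 1 and 2, against 98 and 160 for Mir26a-2. Mir26b and Mir26a-1 had no other counted miRNA gene with a known position within 187756 and 1032460 bases of their start.

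Of the 3 hosts, Ctdsp2 held a match to the miR-26 seed in its 3′ UTR. The motif TACTTGA, which pairs with the seed, was searched on the transcript's strand in the longest 3′ UTR of each of 20998 protein-coding genes, and 9.68% held it. Among 7437 genes with a 3′ UTR of at least 1000 and under 3000 bases, the range of Ctdsp1, the share was 11.9%. Among 2360 genes with a 3′ UTR of at least 3000 and under 6000 bases, the range of Ctdsp2 and Ctdspl, it was 27.0%, so 1 of 3 hosts is near the background. Ctdsp2 (3489 bases) held 1 match, at bases 1080 to 1086 of the 3′ UTR of Ctdsp2-201 on chromosome 10. It is shown as DNA, 5′ to 3′, with the match in capitals.
Ctdsp2 match: gtgttgctctTACTTGAttt
The letters TACTTGA were not found in the 3′ UTRs of Ctdsp1 (1701 bases) and Ctdspl (3349 bases). A match is a description of the letters and no proof of a site.

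Other miRNA families in introns were counted in the same files. Closest in arrangement were Mir107, Mir103-2 and Mir103-1, which lie in introns of the Pank genes, whose enzymes start coenzyme A synthesis. Mir103-2 and Mir103-1 share their 3′ arm letter for letter, and Mir107 differs from it. Mir107 had 3227 and 2455 CPM in replicates 1 and 2, Mir103-2 had 35.8 and 35.0 CPM, and Mir103-1 had 2.62 and 2.23 CPM. The ratio of counts of Mir107 to Mir103-2 was 90.2 (75.5 to 109, exact binomial 95% interval) and 70.2 (61.1 to 81.0) in replicates 1 and 2. For Mir26b to Mir26a-2 it was 1183 and 1094, so the intervals of the families did not overlap in either library. Mir26b exceeded Mir107 by 10.4 times (10.2 to 10.7) in replicate 1 and by 12.2 times (12.0 to 12.4) in replicate 2. The ratio of Mir26a-2 to Mir103-2 was 0.797 (0.605 to 1.05) and 0.784 (0.634 to 0.969), so the first interval included 1 and the second did not.

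Among the other families chosen for comparison the low genes were mostly those with an arm in common. Beside the Mir26 genes, 7 of these genes had 1 arm identical to that of another gene, with means between 2.42 CPM (Mir103-1) and 167 CPM (Mir128-1). The other 6 had no identical arm in the RefSeq table, with means between 9.00 CPM (Mir153, in the Ptprn2 gene of nerve and endocrine vesicles) and 45857 CPM (Mir208b, in the myosin gene Myh7). In the Nfyc gene, Mir30e had 27773 ± 4568 CPM and its neighbour Mir30c-1, with an identical arm, 88.8 ± 6.80 CPM (SD, n = 2). Mir218-2 and Mir218-1, in the Slit genes of axon guidance, had 30.1 ± 8.84 and 16.5 ± 1.92 CPM, and Mir128-2 had 58.7 ± 56.2 CPM. Mir153 shows that a low level was also found with no identical arm, and no test was run on these groups.

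**Figure D3:**
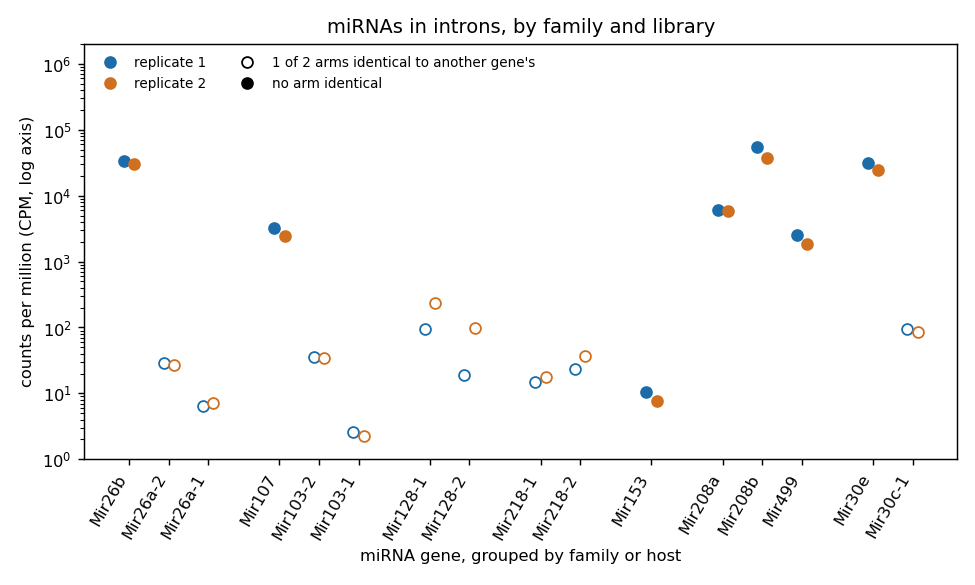
CPM on a log axis of 16 intronic miRNA genes, grouped by family or host, 1 point per library. Open points are genes with 1 of 2 mature arms identical to an arm of another gene, and all lie below 300 CPM, while Mir26b, Mir107, Mir30e and the myosin-hosted genes (filled) lie above 1800 CPM and Mir153 (filled) near 9.00 CPM.

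Among detected genes of their own kind both Mir26a genes stood in the lower part. Mature arms were listed for 916 of the 1973 genes, and 53 genes had, like Mir26a-2 and Mir26a-1, 1 of 2 arms identical to an arm of another gene. Of these 53, 34 were detected, with a median of 60.5 CPM. Among the 34, which leaves out the undetected genes, 25 had a higher mean than Mir26a-2 and 31 a higher mean than Mir26a-1. The highest was Mirlet7f-2 at 2180 CPM, and only Mirlet7f-2, Mir92-1 and Mir16-1 exceeded 1000 CPM. Of 513 genes with 2 arms and no identical one, the kind of Mir26b, 215 were detected, with a median of 214 CPM, and 6 had more counts than Mir26b. The 87 genes with any identical arm held 1.02% ± 0.0191 of all counts, against 88.2% ± 0.398 in the 829 genes with none (SD, n = 2). With a stretch of 20 bases in common with another hairpin as the measure, the genes sharing one held 6.42% of counts, and Mir23a, at 22047 CPM, was the highest of 8 above 1000 CPM. The table of arms is not complete, so a gene with no identical arm in it can still have one.

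**Figure D4:**
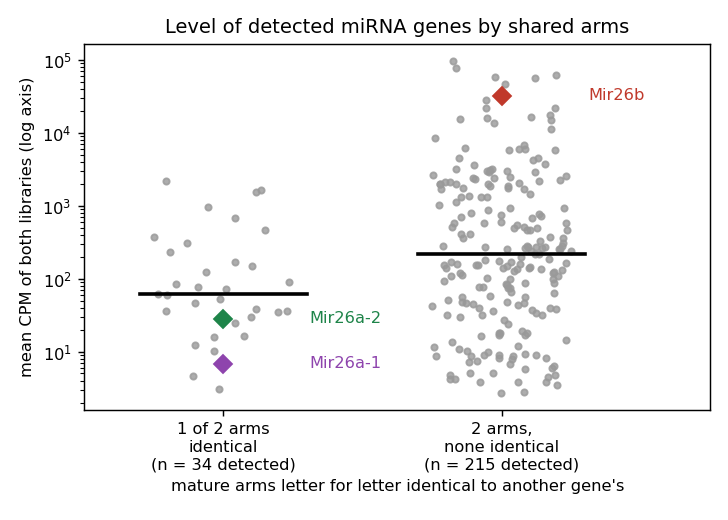
Mean CPM (log axis) of detected miRNA genes with 1 of 2 arms identical to another gene's arm (34 genes, left) and with 2 arms and none identical (215 genes, right), where the black lines are medians. Mir26a-2 and Mir26a-1 lie below the left median of 60.5 CPM, and Mir26b lies near the top of the right group.

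In level, Mir26b was closest to Mir30e and Mir208b. The 5 genes nearest to it by distance of log2(CPM + 0.5) over both libraries were Mir30e (distance 0.31), Mir208b (0.75), Mir23a (0.79), Mir351 (0.80) and Mirlet7g (1.18). Mir30e, next below Mir26b in the order of means, had 31002 and 24543 CPM, so the ranges of the 2 genes overlapped. Mir208b, next above, had 53878 and 37837 CPM, which did not overlap those of Mir26b. The genes nearest to Mir26a-2 were Mir452, Mir3099, Mir668, Mir33 and Mir302c, at 26.8 to 33.7 CPM. Those nearest to Mir26a-1 were Mir7655, Mir3064, Mir6540, Mir1298 and Mir1930, at 5.99 to 7.23 CPM. Both Mir26a genes overlapped their neighbours on either side. Likeness over 2 libraries of 1 group is little more than a like level.

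How far the pools differed was tested for each gene against counting error, a comparison of 2 libraries and of no conditions. After TMM scaling (trimmed mean of M values), an exact conditional binomial test with Benjamini-Hochberg adjustment over 413 genes called 190, or 46.0%. Of all genes tested 24.0% were called higher in replicate 1 and 22.0% higher in replicate 2. Of the 3 Mir26 genes, Mir26b alone was called, higher in replicate 1, and 1 of 3 is no departure from that background. Its log2 ratio of replicate 1 to replicate 2 was 0.37 (exact binomial 95% interval 0.36 to 0.38), and its adjusted p was below the smallest number the computation holds. Mir26a-2 had a log2 ratio of 0.26 (-0.12 to 0.63, adjusted p = 0.276 in the exact binomial test) and Mir26a-1 one of 0.05 (-0.78 to 0.81, adjusted p = 1.00).

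The difference of Mir26b was moderate beside the spread of other genes. The median log2 ratio of all genes tested was -0.01, and 114 of 327 detected genes (34.9%) had a larger absolute log2 ratio than Mir26b. The interval of Mir26a-2 includes the ratio of Mir26b, so no difference between them was detectable with these counts. With total counts in place of TMM the median over all genes was -0.21. The log2 ratio of Mir26b then came to 0.17, that of Mir26a-2 to 0.06 and that of Mir26a-1 to -0.16. The 190 calls under TMM were 99 higher in replicate 1 and 91 in replicate 2, and the calls under total counts were 48 and 155. Relative to the median of all genes, the ratio was 0.38 for Mir26b, 0.27 for Mir26a-2 and 0.05 for Mir26a-1 under either scaling, since a scaling moves all genes alike.

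**Figure D5:**
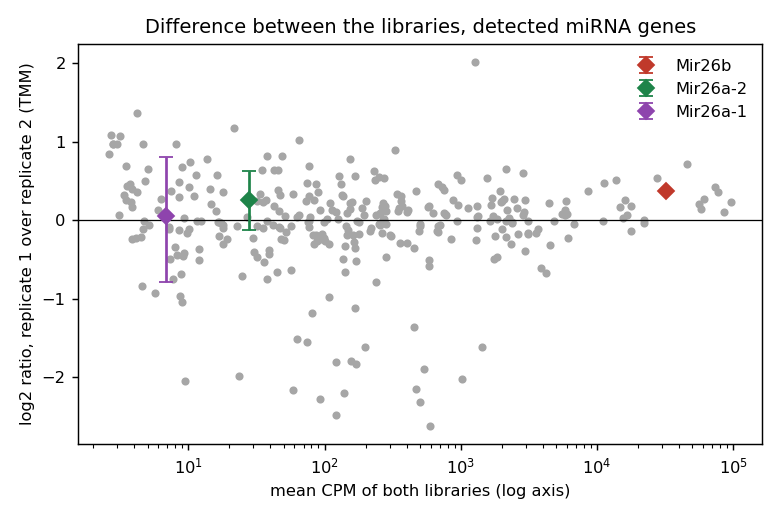
Log2 ratio of replicate 1 to replicate 2 after TMM scaling against mean CPM (log axis) for 327 detected miRNA genes, with the Mir26 genes as diamonds and their exact binomial 95% intervals. Mir26b lies at 0.37 with an interval too narrow to see, and the intervals of both Mir26a genes include 0.

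The pools also differed in miRNAs of particular cell types, given here beside the Mir26b difference. Under TMM scaling, used for the calls below, 24.0% of all 413 genes tested were called higher in replicate 1 and 22.0% higher in replicate 2. Under total counts, 48 and 155 of the 413 were. The heart muscle list (Mir208b, Mir208a, Mir499 and Mir490) summed to 62459 and 45592 CPM in replicates 1 and 2, and 3 of its 4 genes were called higher in replicate 1. The epithelium list summed to 1404 and 5561 CPM, and 5 of 5 genes were called higher in replicate 2. Of the red blood cell list, Mir451a had 1975 and 564 CPM in replicates 1 and 2, and Mir144 had 401 and 422 CPM. Both were called higher in replicate 1 after TMM scaling, Mir144 with a log2 ratio of 0.13. Mir486, an erythroid miRNA outside that list and named after its values were seen, had 80.8 and 110 CPM and was called higher in replicate 2. Of the smooth muscle list, Mir143 had 82454 and 88393 CPM and Mir145a 1110 and 899 CPM, and both were called higher in replicate 1 after TMM scaling. In CPM, which is scaled by total counts, Mir143 and Mir144 were higher in replicate 2, so their direction rests on the scaling. The leukocyte miRNA Mir223 had 336 and 471 CPM. The endothelial Mir126a had 79217 and 67775 CPM and the liver miRNA Mir122 87.2 and 309 CPM. The neuronal list summed to 44.5 and 236 CPM, nearly all of it Mir137 with 44.2 and 234 CPM, which was called higher in replicate 2 (log2 ratio -2.20). Of the other neuronal genes Mir9-3 had 1 and 9 counts, and 4 of the 6 genes on the list had 0 counts. Both arms of Mir9-2 and of Mir9-3 were identical to arms of another gene. Reads that match several genes are in no gene's count, so low or 0 counts here need not mean low amounts. All 4 miRNAs of the heart muscle list were detected in both libraries. Of other muscle miRNAs, outside that list and named after their values were seen, Mir206 was detected, with 73.3 and 102 CPM in replicates 1 and 2. Mir1a-1, Mir133a-1 and Mir133b were below the limit for detection. Mir1a-1 had 0.872 and 0.686 CPM in replicates 1 and 2, Mir133a-1 had 5 and 7 counts, and Mir133b had 8 and 14 counts. Neither of these Mir133 genes was called between the libraries. Multiply matching reads are outside these counts too, so a low count of a muscle miRNA gene need not mean a low amount. The part of cell composition in the Mir26b difference was not tested.

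Among miRNAs known, like miR-26, for restraining growth, Mir26b was one of the most counted. Of a list of 26 such genes, 24 were matched and 22 detected, and only Mirlet7i (58146 ± 1901 CPM) and Mirlet7g (56410 ± 68.7 CPM) exceeded Mir26b. Mirlet7d followed at 16613 ± 1102 CPM. The median over the 24 genes was 299 CPM, against 146 CPM over all detected genes. Both Mir26a genes lay far below it, as did Mir29b-1 (2.77 ± 0.211 CPM) and Mir29b-2 (2 and 7 counts), which also share an arm with each other. A low level and an identical arm did not always go together, since Mir34b, with no identical arm, had 13.6 CPM, and Mirlet7f-2 and Mir16-1, with 1 each, had 2180 and 1556 CPM. Between the libraries 13 of 23 tested genes of the list were called higher in replicate 1 and 3 higher in replicate 2, beside 99 and 91 of all 413 genes (24.0% and 22.0%). The median log2 ratio was 0.13 in the list and -0.01 over all genes. With total counts the list had 6 and 9 calls, beside 48 and 155 of all 413 genes, so the direction of the list rests on the scaling. Mir34a, a target of p53, had 261 and 210 CPM in replicates 1 and 2, and Mir16-1, which targets G1 cyclins, 1732 and 1380 CPM. Both were called higher in replicate 1 after TMM scaling, while Mirlet7b, with 2702 and 3507 CPM, was called higher in replicate 2.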

How the data were processed

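The authors' reads were aligned to mm10 and assigned to GENCODE M4 genes, per the deposited text files. The name of the aligner is not given in the sources used here, nor is that of the counter. Deposited values are whole, unnormalized counts per miRNA gene in 3 columns. The second was taken as the strand of the gene, since the first equals the sum of the other columns for all 1973 genes and the second far exceeds the third. Lines naming no gene stayed out of totals (13.1% and 15.1% of reads unmapped in replicates 1 and 2). Of 7056606 and 11735546 reads, 3439539 and 5833156 were counted on a gene's strand, so 1 count was worth 0.291 and 0.171 CPM.

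Symbols and positions came from GENCODE M21 (1894 IDs matched without version), sequences from RefSeq. TMM factors (0.932 and 1.07, genes with at least 10 summed counts) came from edgeR 4.0.16, alternative size factors from DESeq2 1.42.0, under R 4.3.3. Log2 ratios used a pseudocount of 0.5 counts. Other steps used Python 3.11.15, numpy 2.4.6, pandas 2.3.3, scipy 1.17.1 and matplotlib 3.10.9. The comparison was also run on simulated counts with set changes and counting error, scaled by total counts. These held no variation between pools, so they cannot show how the calls behave when pools vary. The members, lists, tests and alternatives were chosen with earlier results of these data known. Named genes were the members, all genes of the intronic families, the 5 nearest genes and examples from the growth list. No molecular identifiers appear in the count files, so intervals cover counting error only. Separate pools are the replicates, but 2 pools give little hold on their spread. Mir497, Mirlet7f-1 and Mir9-1 were not analysed here.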

Additional observations from a re-analysis of the deposited data

How the results depend on the processing

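Of 54 alternative values, 6 moved, a level or ratio of counts by more than the SD of the 2 pools, or a count of genes by more than 1.5 times. The other 48 stayed within these limits or kept their call. Some of these could not have moved. A level or ratio with 1 pool left out always lies within the SD of the 2 pools. Ratios between the Mir26 genes were the same with either strand counted, as these genes had no counts on the opposite strand. Among the 48 was the uncalled ratio of Mir26a-1 between the libraries, whose sign changed under total counts, to -0.16. Set against all reads of a library, multiply matching and unmapped reads included, the levels were 15672 per 1000000 reads for Mir26b, 13.8 for Mir26a-2 and 3.35 for Mir26a-1. With either strand counted, Mir26a-2 came to 26.5 CPM, because the total grew and its own counts did not. With 1 count in both libraries as the limit, 417 genes with no identical arm were detected in place of 261. With 100 counts as the limit, 191 genes with no identical arm and 27 with one were detected. With classes by a stretch of 20 bases shared with another hairpin, chosen after seeing the data, 65 genes of the class of Mir26a-2 and Mir26a-1 were detected in place of 39, since the class then held 907 genes. Their median was 88.8 CPM, against 164 CPM for detected genes sharing none. Under these classes 7.17% of genes sharing a stretch were detected, against 26.5% of the others. With identical arms the shares ran the other way, 44.8% of genes with an identical arm against 31.5% of those with none. The classes by arms covered 916 genes and those by stretches 1894, so the order of detection rests on the class and the genes covered.

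The called Mir26b difference kept its direction under total counts, DESeq2 size factors, no filter and either strand, from 0.17 to 0.38, and was 0.17 under total counts. Mir26a-2 and Mir26a-1 were called under none of them. Calls over all genes ran from 180 to 203. Leaving out 1 pool at a time, the level of Mir26b was 30006 to 33707 CPM, that of Mir26a-2 27.4 to 28.5 CPM and that of Mir26a-1 6.40 to 7.20 CPM. No paired analysis was possible because there is 1 group. Both Mir26a genes had counts of 22 to 160, which leave wide intervals and do not include multiply matching reads.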
